A study of Mus musculus with 10 samples.

Results

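The collagen genes other than those of cartilage were followed across ureteric bud (UB) organoids, collecting duct (CD) organoids and adult CD cells of the mouse. Every gene was taken whose symbol consists of Col, a number, the letter a and a number, and the 6 cartilage genes Col2a1, Col9a1, Col9a2, Col9a3, Col11a1 and Col11a2 were left out. This left 38 of the 39273 genes in the deposited table. By the kind of structure their chains build, 7 are basement membrane collagens (Col4a1 to Col4a6 and Col18a1), 8 are fibrillar, 6 are fibril-associated (FACIT), 6 belong to type VI, 2 carry anchoring fibril or von Willebrand A type chains, 4 span the cell membrane, 3 form short-chain networks, and Col15a1 and Col26a1 stand by themselves.

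RNA-seq was performed on 10 bulk libraries, 2 in each of 5 groups. UB organoids were grown from UBs taken at embryonic day 11.5 from Wnt11-RFP +/- embryos of a C57BL/6 x Swiss Webster background, embedded in Matrigel, a basement membrane extract, and collected after 5, 10 and 20 days. Their medium (UBCM) held FGF9, TTNPB, CHIR99021, GDNF, LDN193189, A83-01, R-Spondin 1, JAK inhibitor I and SB202190. CD organoids came from UB organoids of the same genotype that were moved to a differentiation medium that held vasopressin, aldosterone, PD0325901, DAPT, Y27632 and FGF9. The adult CD cells are described by the series as sorted from Hoxb7-Venus mice of 2 months, a reporter of the ureteric lineage. Their sample labels instead read embryonic day 11, Wnt11-RFP +/- and organoid. The sources do not say whether the 2 libraries of a group came from separate cultures or animals, so that all p-values measure the spread between these libraries, which may be technical.

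The libraries held between 11913613 and 24536676 counts. Those of days 5 and 10 held at least 22858971 counts each, of which at most 1.58% were mitochondrial. The others held at most 16759872 counts each, of which at least 3.10% were mitochondrial. Comparisons of day 5 or day 10 with day 20 or CD organoids thus cross this difference, and its part in them was not tested. Levels are given as CPM, each count divided by the size of its library, after TMM scaling, an edgeR method that equalises libraries of different composition, and 3 counts, taken as the limit of detection, equal between 0.109 and 0.241 CPM. All 24410 genes with 10 or more counts in total were fitted with edgeR's quasi-likelihood test, and p-values were adjusted after Benjamini and Hochberg. A gene was called where its adjusted p did not exceed 0.01 and its level differed by over 4-fold. Of the 38 collagens 37 were tested, and Col6a4, with 5 counts over all libraries, was not.

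Collagens are triple-helical matrix proteins. Type IV collagen forms the meshwork of basement membranes, the sheets on which epithelia rest. In the kidney the widespread network of Col4a1 and Col4a2 chains is joined, in the glomerulus and along distal tubules and CDs, by a network of Col4a3, Col4a4 and Col4a5 chains, whose loss causes Alport syndrome. Fibrillar collagens such as types I and III are laid down mainly by stromal fibroblasts, and type VI forms beaded filaments next to basement membranes.

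Marker lists were read first, since the collagens have sources other than CD epithelium. All 7 markers of ureteric and CD epithelium exceeded 3 counts in every library, and their summed level lay between 2540 and 4474 CPM. The adult libraries also carried all 8 proximal tubule markers, with sums of 6162 and 7338 CPM against at most 35.5 CPM elsewhere. They carried all 4 markers of the loop of Henle and distal convoluted tubule as well, with 3718 to 3959 CPM, of which Umod alone reached 1998 and 2124 CPM. All 6 endothelial markers were present in them, with sums of 611 and 618 CPM against at most 18.9 CPM in the other groups, where Cdh5 and Emcn lay at or below 0.73 CPM. All 6 podocyte markers exceeded 3 counts in both adult libraries, with sums of 361 and 434 CPM against at most 58.7 CPM in the other groups. Of the 6 leukocyte markers 2 exceeded 3 counts in both CD organoid libraries, Ptprc with 43.7 and 37.4 CPM and Cd68 with 8.19 and 8.66, while Csf1r, Lyz2, Itgam and Cd3e held 3 counts or fewer, Itgam being at 0. In adult cells 4 of 6 did, with Csf1r at 26.2 and 30.0 CPM. The sum of 4 chondrocyte markers went from 832 to 1017 CPM at day 5 over 45.0 to 207 at day 10 to 7.10 to 11.7 at day 20, nearly all of it Col2a1, while Acan, Matn1 and Comp lay at or below 0.60 CPM in every library. What such cells contribute to the collagen levels was not tested.

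Basement membrane collagens made up most of the collagen counts in every library, and the fibrillar ones were a minority throughout. The basement membrane sum was 1918 ± 275 CPM at day 5, 1459 ± 326 at day 10, 1034 ± 68.8 at day 20, 1195 ± 22.4 in CD organoids and 4381 ± 191 in adult CD cells (mean ± SD, n = 2 libraries each). This was between 70.4% and 86.6% of the summed level of all 38 genes. The fibrillar sum was 192 ± 49.3, 273 ± 5.55, 138 ± 0.448, 247 ± 94.9 and 313 ± 9.0 CPM in the same order. The fibrillar sum changed its main contributors between groups. Col1a1, Col1a2 and Col3a1 summed to 20.6 ± 18.4, 14.4 ± 3.30 and 5.25 ± 1.25 CPM in UB organoids of days 5, 10 and 20, to 176 ± 85.8 in CD organoids and to 109 ± 6.32 in adult cells. The other 5 fibrillar genes summed to 171 ± 31.0, 259 ± 2.25, 132 ± 0.801, 71.0 ± 9.08 and 204 ± 2.68 CPM. CD organoids were thus the only group in which type I and III transcripts outnumbered those of the other fibrillar genes in each library, by 237 to 77.4 and by 115 to 64.6 CPM.

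**Figure D1:**
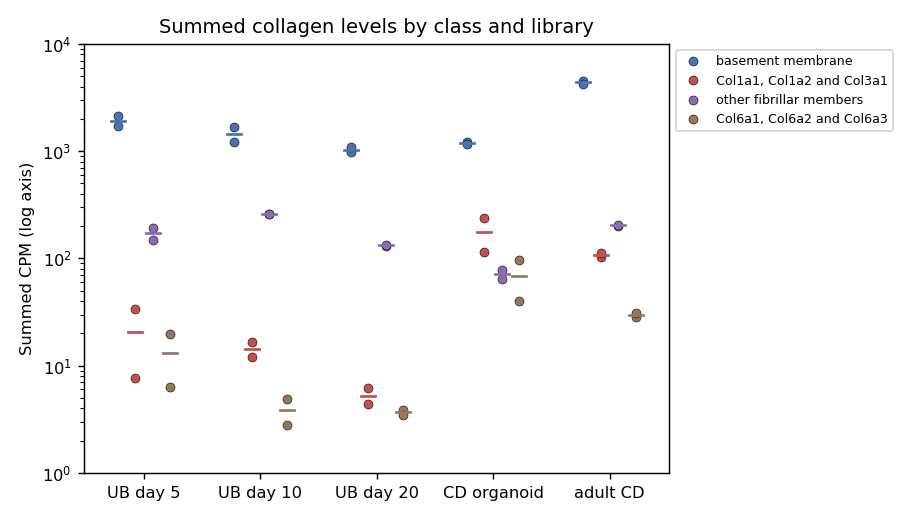
Summed CPM of 4 collagen groups on a log axis for the 5 sample groups, with a point for each of the 10 libraries and a bar at each mean of 2. The basement membrane points lie highest everywhere, and the type I and III points rise from below 34 CPM in UB organoids to above 100 CPM in CD organoids and adult cells.

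Between genes, levels were compared per kb of exon, the union of all exons of a gene. Col18a1, whose chain carries heparan sulphate and releases endostatin, ranked highest in all 5 groups, at 76.3 to 162 CPM per kb. In CD organoids Col4a5 came next at 54.5 ± 1.96 CPM per kb, ahead of Col4a1 at 16.8 ± 2.41. In adult cells the order was Col18a1, Col4a1, Col4a4, Col4a2, Col4a3 and Col4a5, and Col18a1 at 162 ± 12.4 and Col4a1 at 153 ± 7.54 did not differ beyond their spread. By the deposited RPKM, which use other gene lengths, Col4a4 ranked first in adult cells and Col4a2 rose above Col4a1 in UB organoids. At a mean of at least 10 CPM stood 12, 13 and 12 of the 38 genes in UB organoids of days 5, 10 and 20, 21 in CD organoids and 20 in adult cells.

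The 6 type IV genes lie in 3 head-to-head pairs, and the stretch around each pair of starts is shown because members of a pair moved together in some cases and apart in others. Col4a4 on the minus strand and Col4a3 on the plus strand of chromosome 1 leave 126 bases between the first exons of their protein-coding transcripts (GENCODE M21, GRCm38). A Col4a3 transcript with a retained intron starts inside that gap. Col4a1 and Col4a2 on chromosome 8 overlap by 22 bases at their first exons. Col4a6 and Col4a5 on chromosome X are 1308 bases apart, so that each has an upstream stretch of its own. The sequences are those of RefSeq for GRCm38.p6, 5′ to 3′, and capitals mark the letters CCAAT (the CCAAT box), the letters GGGCGG (the GC box) or the letters TATAAA (the TATA box), or their reverse complements.

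Between Col4a4 and Col4a3, plus strand, chr1:82586850-82586975: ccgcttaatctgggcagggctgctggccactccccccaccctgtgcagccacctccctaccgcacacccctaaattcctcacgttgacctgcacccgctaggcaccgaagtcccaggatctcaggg
Shared by Col4a1 and Col4a2, plus strand, chr8:11312805-11312826: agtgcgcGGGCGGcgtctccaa
Upstream of Col4a5, plus strand, chrX:141475169-141475384: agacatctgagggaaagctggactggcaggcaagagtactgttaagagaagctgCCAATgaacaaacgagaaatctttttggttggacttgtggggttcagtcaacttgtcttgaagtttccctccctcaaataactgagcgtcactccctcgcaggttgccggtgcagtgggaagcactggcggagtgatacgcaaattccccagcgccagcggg
Upstream of Col4a6, minus strand, chrX:141474077-141474326: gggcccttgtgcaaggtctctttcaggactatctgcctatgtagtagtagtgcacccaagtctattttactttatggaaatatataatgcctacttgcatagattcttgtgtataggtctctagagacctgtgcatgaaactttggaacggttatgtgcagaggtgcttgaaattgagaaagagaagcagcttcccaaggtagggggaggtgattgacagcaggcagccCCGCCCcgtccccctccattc

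The gap between Col4a4 and Col4a3 held none of the 3 letter strings on either strand, and none of the 4 stretches held TATAAA. RefSeq windows from 250 bases before to 50 bases after the start were found for 31 of the 38 collagens, Col4a3 not among them. In these windows GGGCGG was present for 19 of 31 genes (61.3%) against 35.7% of all 32851 windows, CCAAT for 11 (35.5%) against 37.4%, and TATAAA for 4 (12.9%) against 13.6%. These counts are descriptions of letters, and head-to-head neighbours share parts of their windows.

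Col4a3 and Col4a4, the Alport chains, were near the detection limit at day 5 and among the most abundant collagens in adult cells. Col4a3 read 0.21 and 0.20 CPM at day 5, 2.26 and 4.96 at day 10, 8.38 and 10.8 at day 20, 29.6 and 26.5 in CD organoids, and 474 and 475 in adult cells. Col4a4 read 0.34 and 0.41, then 10.3 and 17.5, then 25.3 and 30.8, then 65.2 and 58.2, and 913 and 865 CPM in the same order. The groups ascended in this order without overlap for both genes. The day 5 values rest on 5 Col4a3 counts in each library and on 8 and 10 Col4a4 counts.

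From day 5 to day 10 Col4a3 rose by a log2 fold change of 3.82 ± 0.44 (SE, adjusted p = 2.37e-05) and Col4a4 by 5.03 ± 0.32 (adjusted p = 2.10e-07). From day 10 to day 20 the changes were 1.37 ± 0.24 and 1.00 ± 0.18, with adjusted p of 6.96e-04 and 8.74e-04 but below 4-fold. Without the second day 10 library the Col4a3 rise from day 5 was 3.11 on the log2 scale. In CD organoids Col4a3 was 7.599-fold and Col4a4 4.403-fold higher than at day 10 (adjusted p = 6.37e-08 and 1.89e-07). Without the second day 10 library Col4a3 stood at 3.62 on the log2 scale, and without the first day 10 library Col4a4 fell short of 4-fold, at a log2 fold change of 1.83. Against day 20 the CD organoid differences were 1.55 ± 0.20 and 1.14 ± 0.17 on the log2 scale, not past 4-fold. Adult cells stood higher still. CD organoids were 16.9-fold below them for Col4a3 (adjusted p = 3.41e-10) and 14.4-fold for Col4a4 (adjusted p = 4.11e-10). The adult libraries are also those with podocyte markers at 361 to 434 CPM. Markers of the loop of Henle and distal convoluted tubule stood there at 3718 to 3959 CPM. The part of any of these cells in this difference was not tested. In bulk RNA a larger share of cells that express a gene and more RNA per cell cannot be told apart.

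Col4a1 and Col4a2, the widespread chains, followed another course. Col4a1 read 331 and 495 CPM at day 5, 306 and 164 at day 10, 131 and 162 at day 20, 138 and 112 in CD organoids, and 1185 and 1105 in adult cells. Col4a2 read 243 and 317, then 189 and 105, then 78.8 and 91.9, then 57.7 and 45.8, and 489 and 476 CPM. Both thus lay lower at day 20 than at day 5 without overlap, and highest in adult cells. Between days 5 and 20 Col4a1 changed by a log2 fold change of -1.49 ± 0.24 (adjusted p = 1.76e-04) and Col4a2 by -1.71 ± 0.21 (adjusted p = 1.68e-05), both short of 4-fold. Adult cells exceeded CD organoids 9.14-fold for Col4a1 (adjusted p = 1.72e-07) and 9.30-fold for Col4a2 (adjusted p = 4.64e-08). The adult libraries are also those with endothelial markers at 611 to 618 CPM, cells known to make both chains, and their part in this difference was not tested.

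Col4a5, the X-linked chain that completes the Col4a3 and Col4a4 network, was present everywhere and highest in CD organoids. It read 122 and 126 CPM at day 5, 243 and 183 at day 10, 204 and 222 at day 20, 357 and 376 in CD organoids, and 237 and 231 in adult cells. It was higher in CD organoids than at day 10 by a log2 fold change of 0.78 ± 0.11 (adjusted p = 3.05e-05) and than in adult cells by 0.65 ± 0.11 (adjusted p = 1.75e-04), both below 4-fold. Its neighbour Col4a6 read 44.4 in both libraries of day 5, then 37.2 and 23.5, 15.4 and 16.5, 26.1 and 27.1, and 17.8 and 16.0 CPM. The Col4a6 change from day 5 to day 20 was -1.47 ± 0.17 on the log2 scale (adjusted p = 8.03e-06).

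**Figure D2:**
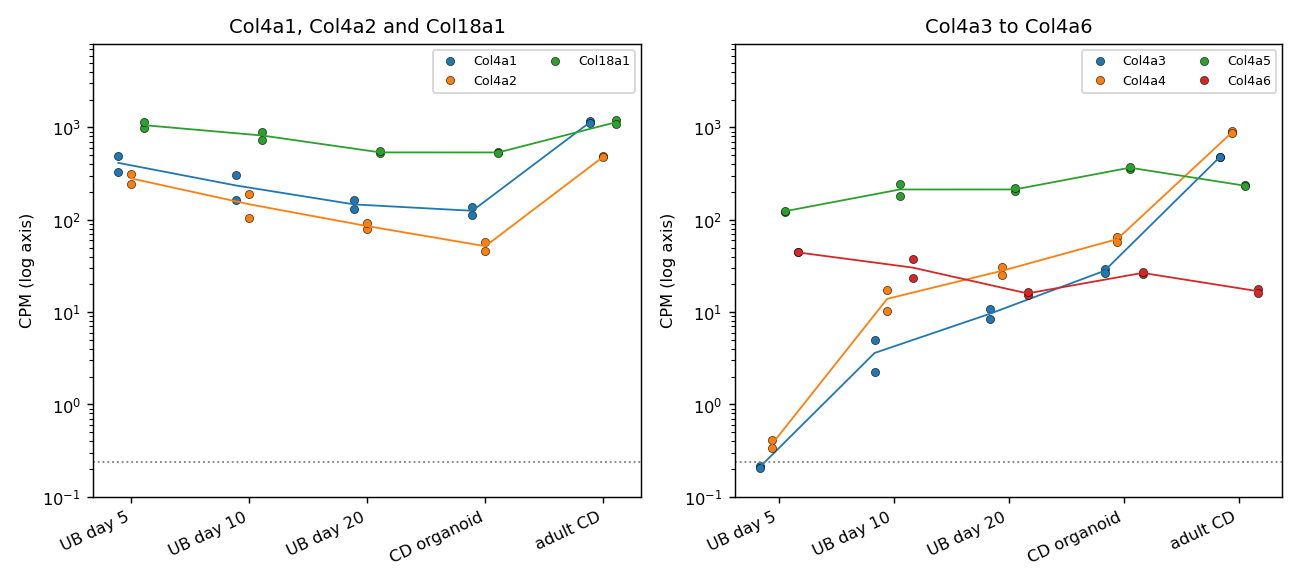
CPM of the basement membrane collagens on a log axis, with a point for each of 2 libraries per group, lines through the group means and a dotted line at 3 counts in the shallowest library. Col4a1, Col4a2 and Col18a1 (left) dip and are high again in adult cells, whereas Col4a3 and Col4a4 (right) climb from the detection limit at day 5 to above 400 CPM in adult cells, past Col4a5.

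Within each head-to-head pair the proportion of the partners was followed per kb of exon. Col4a5 exceeded Col4a6 3.25- and 3.36-fold at day 5, 7.75- and 9.22-fold at day 10, and between 15.7- and 17.2-fold in all 6 libraries of day 20, CD organoids and adult cells. Col4a4 exceeded Col4a3 1.503- and 1.88-fold at day 5, where Col4a3 held 5 counts in each library, 4.30- and 3.31-fold at day 10, 2.84- and 2.69-fold at day 20, 2.07- and 2.06-fold in CD organoids, and 1.81- and 1.71-fold in adult cells. Col4a1 over Col4a2 lay between 1.21 and 1.57 in UB organoids and between 2.06 and 2.18 in CD organoids and adult cells. Thus Col4a5 over Col4a6 was higher at each later UB day, and Col4a4 over Col4a3 was highest at day 10 and lower in each group after it.

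As shares of the summed type IV level per kb, the 3 pairs exchanged places. Col4a1 and Col4a2 together held 79.9% ± 3.56 at day 5, 58.1% ± 5.93 at day 10, 46.5% ± 1.73 at day 20, 26.9% ± 3.35 in CD organoids and 57.3% ± 0.392 in adult cells (SD, n = 2). Col4a3 and Col4a4 held 0.0469% ± 0.00606, 2.07% ± 1.40, 5.15% ± 0.263, 9.47% ± 0.523 and 33.3% ± 0.283. Col4a5 and Col4a6 held 20.1% ± 3.56, 39.8% ± 4.52, 48.3% ± 1.99, 63.6% ± 3.88 and 9.36% ± 0.109. CD organoids and adult cells differed in that Col4a5 made up 59.9% of the type IV level in the former and 8.82% in the latter. With the deposited gene lengths Col4a3 and Col4a4 held 17.3% in CD organoids and 45.8% in adult cells, in the same order of groups.

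**Figure D3:**
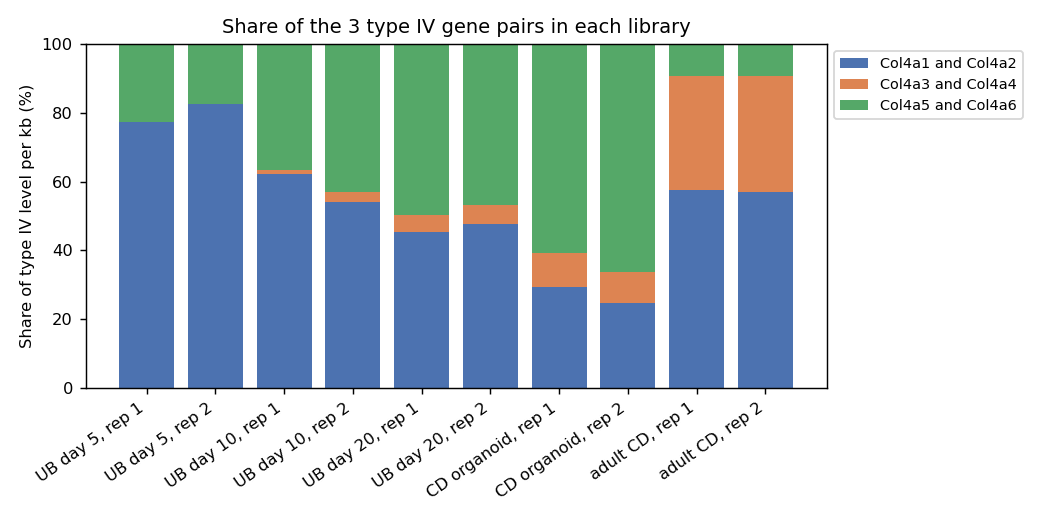
Share in percent of the summed type IV collagen level, per kb of exon, held by each head-to-head gene pair in each of the 10 libraries. Col4a1 and Col4a2 shrink from about 80% to below 30% in CD organoids, Col4a5 and Col4a6 are the largest part there, and Col4a3 and Col4a4 reach 33.1% and 33.5% in the adult libraries.

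Col18a1 read 982 and 1130.2 CPM at day 5, 902 and 731 at day 10, 523 and 549 at day 20, 538 and 534 in CD organoids, and 1202 and 1078 in adult cells. Its log2 fold change from day 5 to day 20 was -0.98 ± 0.10 (adjusted p = 3.99e-06), and CD organoids and day 20 organoids differed by -0.0013 ± 0.10. None of its 7 comparisons passed 4-fold.

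Counted over all 37 tested collagens, calls were few between successive UB days. They were more frequent from day 5 to day 20 and in the comparisons with CD organoids or adult cells, as they also were over all genes. From day 5 to day 10, 3 rose (Col4a3, Col4a4 and Col16a1) and 3 fell (Col1a2, Col6a1 and Col13a1), where 3.41% of the tested genes were called in either direction, 2.34% higher and 1.07% lower. The median log2 fold change was 0.47 over the members and 0.02 over all genes, but -0.11 when members at or below 3 counts in a group are set to their bound or, if so in both groups, left out. From day 10 to day 20 none rose and Col5a1 and Col26a1 fell, against 1.66% and 1.73% of all genes, 3.39% together, and the medians were -0.52 and -0.10. In the edgeR test 6 of the members (16.2%) were higher at day 20 with an unadjusted p under 0.05, as were 17.0% of all genes, and DESeq2 and limma called 0 of them higher. From day 5 to day 20, 6 rose and 4 fell, against 4.68% and 3.93% of all genes, 8.61% together, with medians of -0.32 and -0.05.

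CD organoids were compared with both UB stages and with adult cells. Against day 10, 10 collagens were higher and 3 lower, where 10.7% of all genes were called, 4.96% higher and 5.71% lower, and the medians were 0.28 for the members and -0.15 for all genes. Against day 20, 8 were higher and 4 lower, with 4.74% and 4.73% of all genes, 9.46% together, and medians of 0.74 and 0.00. Against adult cells none was higher and 11 were lower, with 4.5% and 9.84% of all genes, 14.3% together, and medians of -0.48 and 0.00. Of the members, 6 (16.2%) were higher than in adult cells with an unadjusted p under 0.05 in the edgeR test, against 26.4% of all genes, DESeq2 called 0 and limma 1. Adult cells against day 20 had 17 collagens higher and 2 lower, against 12.3% and 6.89% of all genes, 19.2% together, and medians of 1.91 and -0.06, the first being 1.54 with members at their bounds. Of all called genes 31.4% were higher in CD organoids than in adult cells, and 64.1% higher in adult cells than at day 20. With library totals in place of TMM factors these shares were 44.4% and 50.5%, and the collagen counts were 1 higher and 10 lower, and 15 higher and 2 lower. The comparisons that share a group also share its libraries and are not independent.

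**Figure D4:**
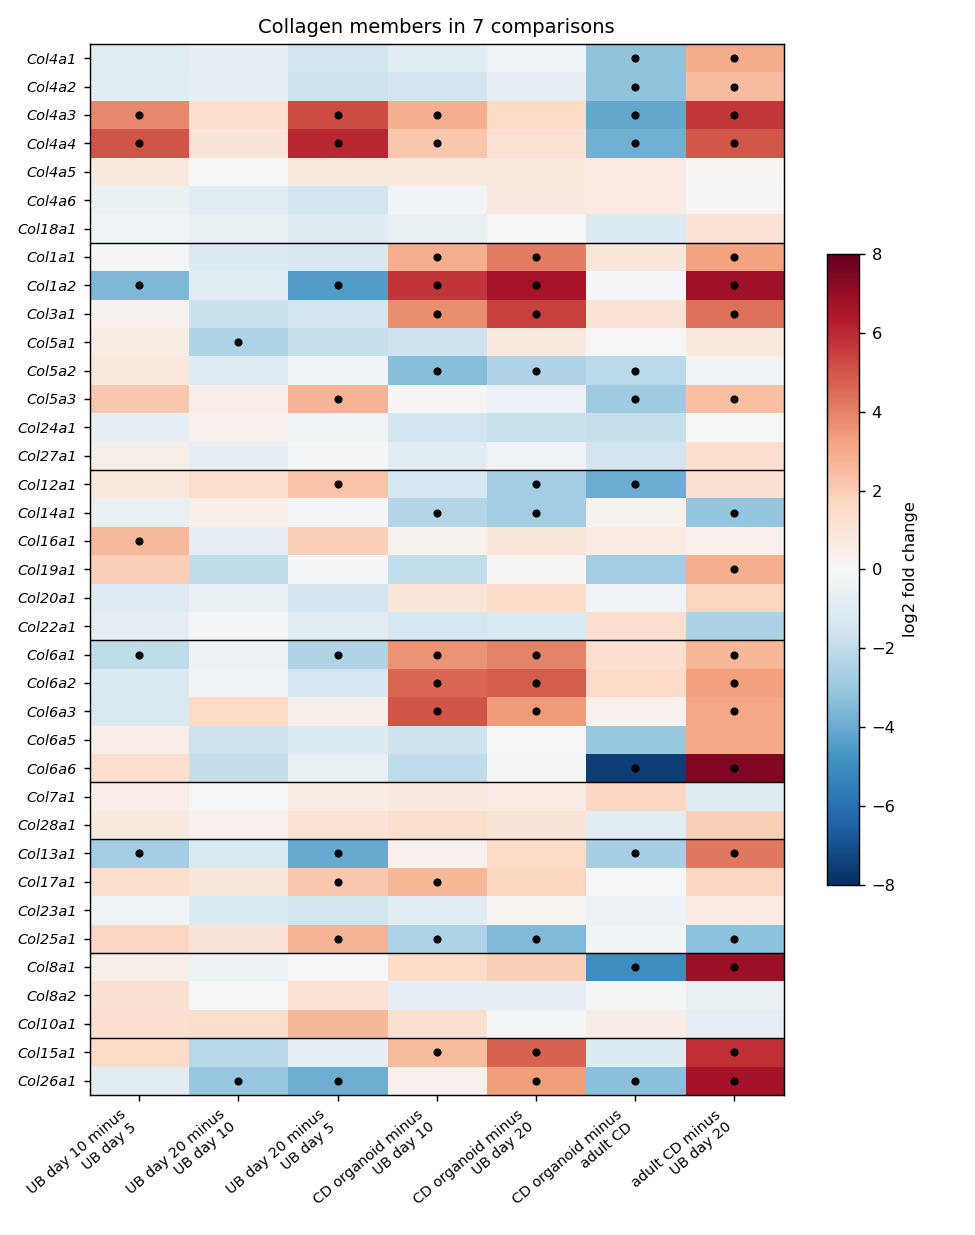
Log2 fold change of the 37 tested collagens (rows, in blocks by class) in 7 comparisons (columns, first group minus second), red for higher and blue for lower in the first group, with a dot where the gene was called. Dots are scarce in the first 2 columns, and Col1a1, Col1a2, Col3a1 and Col6a1 to Col6a3 are red and dotted in CD organoids against both UB stages.

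By class, the basement membrane genes gave 2 of the 3 rises of day 10, 2 of 10 in CD organoids against day 10, none in either direction in CD organoids against day 20, and 4 of the 11 genes lower in CD organoids than in adult cells. Of the 8 fibrillar genes 3 were higher and 1 lower in CD organoids against day 10, and likewise against day 20, where 4.96% and 5.71%, and 4.74% and 4.73%, of all genes were. Of the 5 tested type VI genes 3 were higher in both, with the same shares of all genes. The medians of the classes in CD organoids against day 10 were -0.19 for basement membrane, -0.42 for fibrillar and 3.59 for type VI genes.

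Type I collagen, the main fibril of connective tissue, is built from Col1a1 and Col1a2 chains, and type III from Col3a1 alone. Col1a1 read 3.12 and 11.8 CPM at day 5, 7.06 and 6.86 at day 10, 3.40 and 2.64 at day 20, 76.3 and 30.6 in CD organoids, and 27.7 and 29.8 in adult cells. Col1a2 read 4.48 and 10.7, then 0.40 and 0.73, then 0.30 and 0.26, then 41.4 and 23.4, and 34.0 and 39.9 CPM. Col3a1 read 0 and 11.1 at day 5, 9.28 and 4.49, then 2.43 and 1.45, then 119 and 61.4, and 42.5 and 43.5 CPM. All CD organoid and adult libraries lay above all UB libraries for these 3 genes. The second day 5 library and the first CD organoid library were higher than their partners for each of the 3.

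CD organoids exceeded day 10 organoids 7.66-fold for Col1a1 (log2 2.94 ± 0.45, adjusted p = 9.67e-05), 52.2-fold for Col1a2 (5.71 ± 0.44, adjusted p = 1.08e-07) and 13.1-fold for Col3a1 (3.71 ± 0.72, adjusted p = 6.67e-04). Without the first CD organoid library Col3a1 was no longer called (log2 3.15, adjusted p = 0.0161), whereas no single library ended the calls of Col1a1 and Col1a2, which stayed between 2.13, without the first CD organoid library, and 3.46 and between 5.24 and 6.18 on the log2 scale. Without the first day 10 library Col3a1 stood at 4.33. DESeq2 gave Col3a1 an adjusted p of 0.0794 and limma 0.126. Against day 20 the folds were 17.4, 96.0 and 44.9 (adjusted p = 1.93e-05, 2.02e-07 and 1.71e-04), and Col1a1 stood at 3.31 on the log2 scale without the first CD organoid library. With all libraries limma gave Col3a1 an adjusted p of 0.0342 against day 20. Relative to day 5, Col1a2 differed by -3.62 ± 0.46 on the log2 scale at day 10 (adjusted p = 5.09e-05) and by -4.50 ± 0.58 at day 20 (adjusted p = 2.59e-05), and by -2.86 and -3.73 without the second day 5 library. CD organoids and adult cells were not called different for any of them, with Col1a1 at 0.90 ± 0.42 (adjusted p = 0.0943) and Col3a1 at 1.07 ± 0.64 (adjusted p = 0.188). Adult cells against day 20 were called for all 3, but Col3a1 lost its call on adjusted p without either day 20 library (log2 4.84 and 4.12). With all libraries DESeq2 and limma gave this Col3a1 difference adjusted p of 0.0268 and 0.0804.

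Of the 8 stroma and fibroblast markers, Dcn and Pdgfra were higher in both CD organoid libraries than in all 6 UB organoid libraries, and the other 6 were not. Of the list, 5 exceeded 3 counts in both CD organoid libraries, and the sum was 44.8 and 33.8 CPM there, 6.32 to 6.45 at day 5, 8.10 to 9.0 at day 10, 8.92 to 10.7 at day 20 and 75.5 to 83.4 in adult cells. Dcn read 22.4 and 21.5 CPM in CD organoids against at most 1.65 in UB organoids, and Pdgfra 17.4 and 9.63 against at most 3.31. Pdgfrb, at 3.276 and 1.68 CPM in CD organoids, was below day 10 with 4.84 and 4.45. Lum, at 0.50 and 0.32, and Acta2, at 0.85 and 0.56, were below day 20, where they read 1.09 and 1.32 and 2.43 and 2.71 CPM. Ebf2 was at 0 in both CD organoid libraries, and Foxd1 and Tbx18 at 3 counts or fewer. In adult cells Pdgfrb read 30.3 and 33.3 and Acta2 29.1 and 32.9 CPM. At day 5 only 2 of the 8 markers exceeded 3 counts in both libraries. The stroma sums there were 6.32 and 6.45 CPM, and Col1a1, Col1a2 and Col3a1 summed to 7.6 and 33.6 CPM. Whether stroma or fibroblasts are the source of the type I, III and VI transcripts in any group was not tested.

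**Figure D5:**
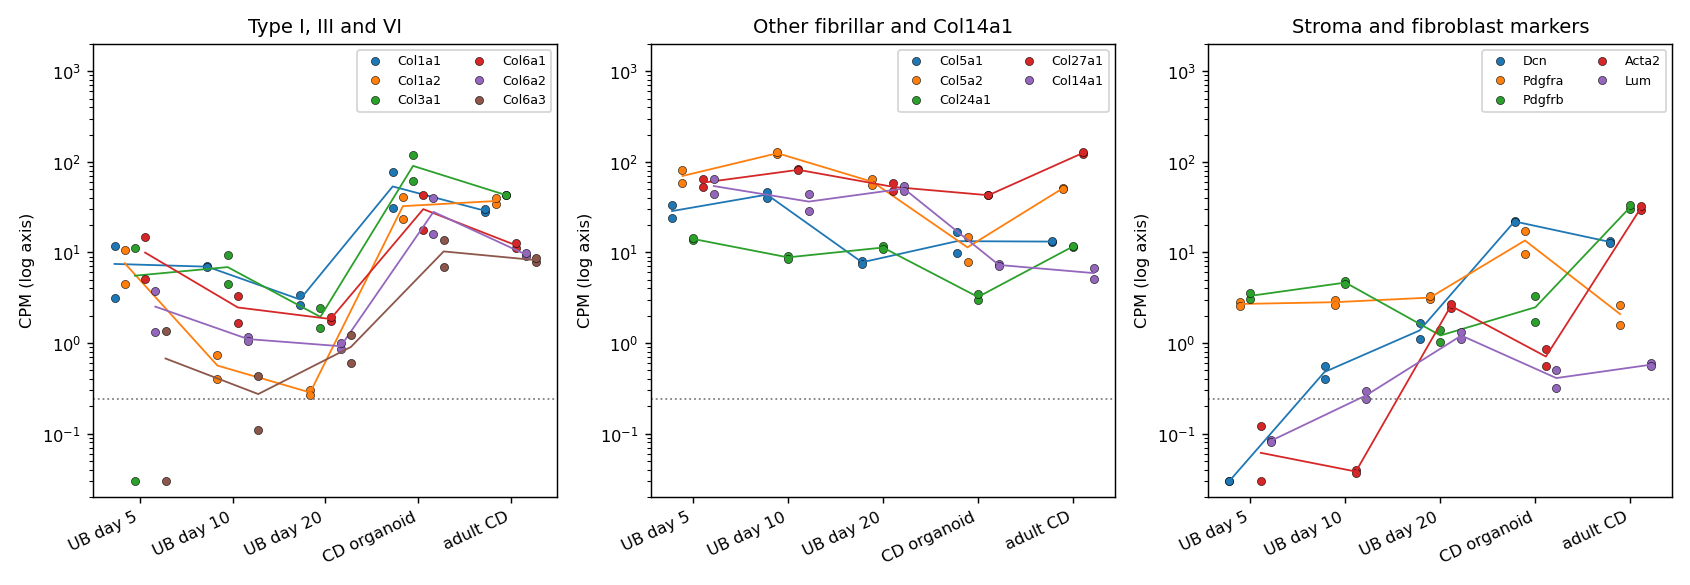
CPM on a log axis of type I, III and VI collagens (left), other fibrillar collagens and Col14a1 (middle) and 5 stroma markers (right), a point per library, lines through group means, libraries at 0 drawn at 0.03 and a dotted line at 3 counts in the shallowest library. The genes at left rise in CD organoids, where Col5a2, Col24a1 and Col14a1 in the middle are lower than at day 20 and Dcn and Pdgfra at right are higher than in UB organoids.

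The other fibrillar genes did not share this course. Col5a2, which joins Col5a1 in type V collagen and nucleates fibrils, read 58.8 and 80.8 CPM at day 5, 121 and 128 at day 10, 64.2 and 56.0 at day 20, 14.9 and 7.86 in CD organoids, and 51.9 and 49.7 in adult cells. It was 10.8-fold lower in CD organoids than at day 10 (log2 -3.43 ± 0.21, adjusted p = 1.05e-08) and 5.22-fold lower than at day 20 (adjusted p = 5.30e-07). It was 4.41-fold lower than in adult cells (adjusted p = 1.45e-06), a call that ended without the second CD organoid library, with a log2 fold change of -1.78. Col5a1 read 24.1 and 33.1, 46.6 and 40.3, 8.01 and 7.54, 16.7 and 9.95, and 13.1 and 13.2 CPM, and was called in a single comparison, day 20 against day 10 (log2 -2.47 ± 0.21, adjusted p = 1.86e-06). Type I transcripts thus went up and Col5a2 transcripts down in CD organoids against the same UB libraries.

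Col27a1, a fibrillar chain best known from cartilage but kept here by the naming rule, read 53.0 and 64.9, 82.8 and 80.3, 47.4 and 58.2, 42.7 and 42.8, and 123 and 129 CPM and passed 4-fold nowhere. Col24a1 read 13.7 and 14.5, 9.24 and 8.39, 11.7 and 10.9, 2.99 and 3.45, and 11.5 and 11.7 CPM, lower in CD organoids than in all other groups without overlap. Its difference from day 20 was -1.80 ± 0.17 on the log2 scale (adjusted p = 8.53e-07), short of 4-fold. Col5a3 was at or below 0.55 CPM outside adult cells, where it read 2.71 and 2.36 CPM. Its called rise from day 5 to day 20, at least 3.42-fold against the limit of 3 counts per library, ended without either library of day 5 or the first of day 20 (adjusted p between 0.0106 and 0.0400). It was lower in CD organoids than in adult cells by a log2 fold change of -2.86 (-3.75 without the second CD organoid library). Its rise from day 20 to adult cells, at 5.23-fold, ended without the second day 20 library (adjusted p = 0.0117).

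Type VI collagen is assembled from Col6a1, Col6a2 and a further chain, most often Col6a3. Col6a1 read 5.04 and 14.9 CPM at day 5, 3.29 and 1.64 at day 10, 1.76 and 1.92 at day 20, 42.6 and 17.5 in CD organoids, and 11.3 and 12.7 in adult cells. Col6a2 read 1.32 and 3.71, 1.15 and 1.06, 0.85 and 0.99, 40.02 and 16.04, and 9.12 and 9.75 CPM. Col6a3 read 0 and 1.35, 0.44 and 0.11, 1.21 and 0.59, 13.6 and 6.90, and 7.76 and 8.65 CPM. As for type I, the first CD organoid library stood above the second, 2.43-fold for Col6a1, and the second day 5 library above the first.

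In CD organoids against day 10 the folds were 12.1 for Col6a1 (adjusted p = 3.39e-05), 24.4 for Col6a2 (adjusted p = 1.45e-06) and 32.2 for Col6a3 (adjusted p = 7.54e-05), and no single library ended these calls. Without the first CD organoid library Col6a1 stood at 2.81 and Col6a2 at 3.80 on the log2 scale, and Col6a3 at 5.98 without the first and 4.41 without the second day 10 library. Against day 20 the folds were 16.0, 29.0 and 10.7. Without the first CD organoid library Col6a1 then stood at 3.22 and Col6a2 at 4.05 on the log2 scale, and the call of Col6a3 ended without the first CD organoid library or the second of day 20 (adjusted p = 0.0233 and 0.0231). Adult cells exceeded day 20 6.36-fold for Col6a1, 9.76-fold for Col6a2 and 8.53-fold for Col6a3. Without either day 20 library the adult Col6a1 call ended (adjusted p = 0.0132 and 0.0109), as did the Col6a3 call when any 1 of the 4 libraries was left out (adjusted p between 0.0111 and 0.0287). The fall of Col6a1 from day 5 to day 10, at 4.01-fold with an adjusted p of 0.00669, ended without the second library of either day (adjusted p = 0.14 and 0.0262), and its fall from day 5 to day 20 ended without the second day 5 library or either of day 20 (adjusted p between 0.0249 and 0.0473).

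Col6a6, an alternative to Col6a3, behaved differently, with 0.60 and 0.20, 0.87 and 1.28, 0.24 and 0.26, 0.43 and 0 CPM in the organoid groups and 47.8 and 56.0 CPM in adult cells. It was 186-fold lower in CD organoids than in adult cells (log2 -7.54 ± 0.42, adjusted p = 3.84e-09; between -6.77 without the second and -9.95 without the first CD organoid library, which held 0 and 6 counts) and 169-fold higher in adult cells than at day 20 (adjusted p = 1.64e-09). Col6a5 had at most 8 counts in any library.

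FACIT collagens bind to the surface of fibrils. Col14a1 read 64.0 and 44.0 CPM at day 5, 28.9 and 43.9 at day 10, 54.0 and 47.3 at day 20, 7.48 and 7.06 in CD organoids, and 6.78 and 5.03 in adult cells, so that all 6 UB libraries lay above the other 4. It was 4.98-fold lower in CD organoids than at day 10 (adjusted p = 1.58e-06), a call that ended at -1.96 on the log2 scale without the second day 10 library, and 6.92-fold lower than at day 20 (adjusted p = 3.08e-07). Adult cells were 8.49-fold below day 20 (adjusted p = 7.51e-08). Col12a1 read 3.42 and 9.71, 7.57 and 16.2, 36.4 and 28.3, 6.05 and 3.21, and 74.8 and 74.3 CPM. It was thus 4.87-fold higher at day 20 than at day 5 (adjusted p = 2.44e-04), though without the first day 5 library the log2 fold change was 1.74 and without the second 3.23, and 15.7-fold lower in CD organoids than in adult cells (adjusted p = 3.09e-06).

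Col16a1 rose from 1.24 and 2.08 CPM at day 5 to 10.0 and 10.6 at day 10 (6.04-fold, adjusted p = 3.23e-06), read 6.92 and 5.75 at day 20, and lay between 7.15 and 14.1 CPM in CD organoids and adult cells. Col20a1 lay between 3.64 and 12.9 CPM in all libraries and was called in no comparison. Col19a1 and Col22a1 stayed at or below 0.60 CPM, and the called rise of Col19a1 from day 20 to adult cells, at least 2.91-fold, ended when any 1 of the 4 libraries was left out (adjusted p between 0.0134 and 0.0557).

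Col15a1, a multiplexin related to Col18a1 that is found where basement membranes meet the stroma, read 0.17 and 1.76, 3.97 and 1.97, 0.85 and 0.33, 20.6 and 13.7, and 37.5 and 37.2 CPM. It was 5.75-fold higher in CD organoids than at day 10 (log2 2.52 ± 0.43, adjusted p = 2.42e-04) and 26.4-fold higher than at day 20 (adjusted p = 1.36e-05), and adult cells and CD organoids differed by less than 4-fold. Without the first day 20 library the difference from day 20 was 5.48 on the log2 scale and that of adult cells from day 20, 5.84 with all libraries, was 6.61. DESeq2 and limma gave the comparison with day 10 adjusted p of 0.0159 and 0.0262. Its relative Col18a1 changed by less than 4-fold in the same comparisons, so that within the multiplexins the gene of the lower level moved more.

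Col26a1 was lowest at day 20 and highest in adult cells. It read 21.8 and 25.1 CPM at day 5, 13.9 and 11.2 at day 10, 0.97 and 2.12 at day 20, 17.8 and 13.7 in CD organoids, and 156 and 165 in adult cells. It fell 14.9-fold from day 5 to day 20 (log2 -3.90 ± 0.23, adjusted p = 2.21e-08) and stood 10.1-fold higher in CD organoids than at day 20 (adjusted p = 9.42e-08). Against day 10 the CD organoids were not called. Adult cells exceeded CD organoids 10.1-fold (adjusted p = 1.02e-09) and day 20 102-fold (adjusted p = 1.30e-11). Without the second day 20 library the differences that involve day 20 were larger in size on the log2 scale. Day 20 minus day 5 was then at -4.52 and day 20 minus day 10 at -3.62. CD organoids minus day 20 stood at 3.95 and adult cells minus day 20 at 7.30.

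Of the transmembrane collagens, Col25a1 read 1.54 and 2.00, 4.68 and 6.64, 12.2 and 11.3, 0.93 and 1.04, and 1.06 and 1.26 CPM. It rose 6.47-fold from day 5 to day 20 (adjusted p = 6.43e-07) and was 11.4-fold lower in CD organoids than at day 20 (adjusted p = 1.59e-07), without overlap of the groups. Col13a1 read 2.18 and 2.49 CPM at day 5 and 3.39 and 2.04 in adult cells but at most 0.52 in between. Between days 5 and 10 it fell by 2.81 on the log2 scale (adjusted p = 7.01e-04), or by 4.21 without the first and 2.07 without the second day 10 library. From day 5 to day 20 it fell at least 11.8-fold, and its difference between CD organoids and adult cells, 6.42-fold, ended without the first CD organoid or the first adult library (adjusted p = 0.0248 and 0.0215). Col17a1, the hemidesmosome collagen, was near the detection limit in UB organoids, with 0 counts in both day 5 libraries, and read 0.78 and 0.72 CPM in CD organoids, at least 6.33-fold above day 10 (adjusted p = 9.59e-04). Its call between days 5 and 20, with at most 3 counts in each of the 4 libraries, ended when any 1 of them was left out. Col23a1 lay between 1.26 and 3.97 CPM and was not called.

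Col7a1, the anchoring fibril of stratified epithelia, read 4.61 and 6.29, 7.26 and 8.61, 8.44 and 7.87, 15.03 and 11.0, and 3.69 and 4.64 CPM, highest in CD organoids without overlap. Its difference from adult cells was 1.63 ± 0.23 on the log2 scale (adjusted p = 3.42e-05), below 4-fold, and with library totals it passed, as the single collagen called higher in CD organoids. The short-chain gene Col8a1 was at 0 to 4 counts in every organoid library and read 4.97 and 7.70 CPM in adult cells, at least 32.0-fold above day 20 (adjusted p = 5.13e-06). It was lower in CD organoids than in adult cells by a log2 fold change of -4.97, -6.92 without the first and -4.26 without the second CD organoid library, and DESeq2 did not call it (adjusted p = 0.232). Col8a2, Col10a1 and Col28a1 stayed at or below 0.61 CPM.

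The comparisons of CD organoids with day 10 and of adult cells with day 20 share no library, so that their calls can be set side by side. Of the 13 collagens called in the first and the 19 called in the second, 11 were called in both, which is 84.6% and 57.9%. All 11 had the same direction in both: Col4a3, Col4a4, Col1a1, Col1a2, Col3a1, Col6a1, Col6a2, Col6a3 and Col15a1 were higher, and Col14a1 and Col25a1 lower. Of all genes, 1361 were called in both in the same direction, 52.2% of the 2605 called in the first and 29% of the 4688 called in the second. Called in the first alone were Col5a2 and Col17a1.

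Genes that make, process, crosslink and bind collagen were counted as a fixed list of 47, of which 46 were tested. From day 5 to day 10, 1 rose and 2 fell, against 2.34% and 1.07% of all genes. From day 10 to day 20, 1 rose, the transglutaminase Tgm2, and 6 fell, against 1.66% and 1.73% of all genes, with medians of -0.36 for the list and -0.10 for all genes. Those that fell were the collagen prolyl hydroxylase subunit P4ha2, the matrix protein Sparc, the propeptide cleavage enhancer Pcolce, the crosslinking enzymes Loxl1 and Loxl2 and the type I collagen receptor Itga11. Itga11 had also fallen at day 10, a call that ended without the second day 10 library (log2 -1.94). The calls of P4ha2, Pcolce and Sparc ended without the first day 10 library (log2 -1.33, -1.81 and -1.94), that of P4ha2 also without the first and that of Pcolce also without the second day 20 library. From day 5 to day 20, 3 rose and 8 fell, against 4.68% and 3.93% of all genes. Loxl2 fell from 96.1 to 1.61 CPM (log2 -5.87, adjusted p = 1.94e-06) and P4ha1, another hydroxylase subunit, from 691 to 140.5 CPM (adjusted p = 8.89e-08), while Tgm2 rose from 0.668 to 42.1 CPM (adjusted p = 3.35e-11).

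In CD organoids against day 10, 6 of the 46 were higher and 8 lower, against 4.96% and 5.71% of all genes. Higher were Ddr2, a receptor of fibrillar collagen, from 0.178 to 6.77 CPM (adjusted p = 1.49e-04), Tgm2 from 9.51 to 157 CPM (adjusted p = 5.13e-12), the galactosyltransferase Colgalt2 from 1.4995 to 29.4 CPM (adjusted p = 3.17e-07), the type I procollagen peptidase Adamts2, the crosslinking enzyme Lox and Creb3l1, a transcription factor of collagen genes. Lower were Loxl1, Loxl2, Loxl3, Fkbp10, P3h3, Adamts3, Itga11 and the collagen uptake receptor Mrc2, which stood at 8.01 against 74.8 CPM (adjusted p = 3.70e-09). The call of Loxl2, with 59.9 ± 47.6 CPM at day 10 and 12.5 ± 0.713 in CD organoids, ended without the first day 10 library (log2 -1.05, below 4-fold) or either CD organoid library, and that of Loxl3 without the second CD organoid library (adjusted p = 0.0104). The list median was -0.50 and that of all genes -0.15. Against day 20, 7 were higher and 3 lower, where 4.74% and 4.73% of all genes were. The higher call of Loxl2 there ended on adjusted p without either CD organoid library or the first day 20 library (log2 2.87, 2.98 and 2.40). Without the first day 20 library the higher calls of P4ha2 (log2 1.93) and Ddr2 (log2 4.42) and the lower call of Fkbp14 (log2 -1.99) ended too.

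Against adult cells 2 of the 46 were higher in CD organoids, P4ha2 and Itga2, and 9 lower, against 4.5% and 9.84% of all genes. The P4ha2 call ended without the first adult library (adjusted p = 0.0125), and among the lower genes those of Adamts3, Lair1, Pcolce2 and Tll1 each ended without at least 1 single library, Adamts3 at a log2 fold change of -1.92 and the others with adjusted p between 0.0112 and 0.0197. Itga2, a subunit of a collagen receptor, read 175 CPM in CD organoids and 4.91 in adult cells (adjusted p = 3.98e-11), whereas Itga1, subunit of a receptor for type IV collagen, read 34.5 and 179 CPM (adjusted p = 4.83e-10). P3h2, a prolyl hydroxylase that acts on type IV collagen, read 22.9 and 213 CPM (adjusted p = 5.82e-11). Adult cells against day 20 had 12 of the list higher and 4 lower, against 12.3% and 6.89% of all genes. The call of Lair1 ended without either adult library or the second day 20 library (log2 2.12, 2.44 and 1.70). That of Ddr2 ended without the second adult or the first day 20 library (log2 4.11 and 3.75). P3h2 and Itga1 were thus lower in CD organoids than in adult cells together with Col4a1 to Col4a4. The list as a whole did not share this direction, as 23 of the 46 genes were higher in CD organoids, called or not. The crosslinking gene Pxdn was among these 23, at 130 CPM in CD organoids and 48.6 in adult cells, and was not called.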

How the data were processed

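Bulk RNA-seq libraries of UB organoids, CD organoids and adult CD cells were analysed from the deposited gene table. The labels list the trimming tools Trimmomatic and cutadapt and the aligner STAR, with the genome build GRCm38.p6. The methods of the study describe trimming, alignment with STAR and assignment to genes with the expectation-maximisation quantifier of Partek Flow. Whether that quantifier gave the deposited counts was not established here. The authors deposited whole-number counts, RPKM values and scaled counts, a signal they name TMM values. The deposited RPKM divide by gene lengths that, for the collagens, are 1.00 to 3.98 times the union of exons in GENCODE M21, and by a TMM-adjusted total. Levels between genes were therefore taken per kb of exon union, a choice made after the data were seen. The sample labels name RNeasy and TruSeq kits, the methods of the study other kits, and the strand setting of the counting is not given in the sources used here.

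Counts were tested by quasi-likelihood in edgeR 4.0.16 (R 4.3.3, TMM factors 0.792 to 1.12, prior count 1, group means over all 10 libraries), with Benjamini-Hochberg adjustment over 24410 genes. Tested on simulated data for CD organoids against day 10, it recovered 200 of 200 genes changed 8-fold among 23645, with 0 false calls. Only genes with high counts were changed there, and all genes were given the same spread. The simulation therefore does not cover genes of few counts or groups whose libraries differ more than others. Standard errors were computed back from the F statistic and are approximate. Limits of 3 counts cover counting error only. In the main fit the replicate numbers were not used as a pairing. Alternatives used DESeq2 1.42.0 and limma 3.58.1 on log2(deposited TMM value + 1), other scalings, filters, prior counts and thresholds, the 4 libraries compared alone, a replicate block and leaving out each library. Every collagen of the rule and every gene of the collagen pathway list could be named. The members, the class, pathway and marker lists, and the tests were chosen with earlier results of these data known.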

Additional observations from a re-analysis of the deposited data

How the results depend on the processing

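Of the 73 collagen calls in the 7 comparisons, 16 were lost when 1 library was left out and 17 under at least 1 of 13 other alternatives. None of 2138 values under the alternatives turned its direction. These values cover only changes with an adjusted p of at most 0.01 in the main fit, so that changes near 0 were left out beforehand. The looser thresholds reused the main fold changes and could not turn a direction. Leaving out each library in turn gave 3 to 5 higher and 2 to 3 lower members from day 5 to day 10, 0 to 2 and 2 to 3 from day 10 to day 20, and 3 to 6 and 3 to 6 from day 5 to day 20. CD organoids had 9 to 10 higher and 2 to 5 lower against day 10, 7 to 8 and 4 against day 20, and 0 to 1 and 10 to 11 against adult cells, and adult cells 12 to 15 and 2 against day 20. With an adjusted p up to 0.05 at whatever fold, UB organoids over time had 12 higher and 11 lower, 4 and 12, and 10 and 11, in the same order. CD organoids had 13 and 11 against day 10, 17 and 7 against day 20, and 6 and 17 against adult cells. Adult cells had 24 and 4 against day 20. Of all genes 15.8% and 16.9%, 13% and 16.0%, and 20.6% and 24.6% passed the same rule over time. For CD organoids these shares were 22.1% and 25.2%, 21% and 21.3%, and 23.8% and 26.1%, and for adult cells 29.3% and 27.1%. At 0.01 and over 2-fold 4 members were higher from day 10 to day 20 and 10 lower from day 5 to day 20. In CD organoids 6 were lower against day 10 and 2 higher against adult cells. Of all genes 3.67%, 8.88%, 11.1% and 9.6% passed this rule in these 4 cases. Fitting the 4 libraries alone left 1 lower from day 5 to day 10. Library totals and limma each gave 1 higher in CD organoids than in adult cells.

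With library totals the basement membrane sum was 1124 CPM at day 20, 1244 in CD organoids and 3471 in adult cells, and the fibrillar sum 303 at day 10, 150 at day 20 and 248 in adult cells. Library totals moved the median log2 fold change of all genes by 0.34 in CD organoids against adult cells and by -0.41 in adult cells against day 20. As deposited RPKM, another unit, the basement membrane sums were 134, 98.3, 70.4, 79.1 and 330, and the fibrillar sums 14.0, 19.9, 9.61, 20.9 and 20.6, from day 5 to adult cells.

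Correlations of same-numbered deviations between groups lay between -0.10 and 0.09 over 14688 genes. With 2 libraries per group these cannot exclude that same-numbered libraries share an origin. With the replicate block 5 members were higher at day 20 than at day 5 and 16 in adult cells than at day 20, and no other member count changed. Calls of Col5a3, Col8a1, Col13a1, Col17a1 and Col19a1 involve a group with at most 3 counts per library.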
